A study of Mus musculus with 4 samples.

Results

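Levels of 8 genes of myoblast fusion and cell adhesion were followed in C3H10T1/2 cells with and without 5-AZA. The genes are Tmem8c (now named Mymk, myomaker), Gm7325 (now Mymx, myomerger), Cdh15, Cdh2, Ncam1, Adam12, Myof and Cd9. They were picked by name from the 21878 genes of the deposited mRNA values, and all 54 of their transcripts, of 75959 in total, were summed per gene. C3H10T1/2 is a multipotent mesenchymal cell line of the mouse, and 5-AZA stands for 5-azacytidine, an inhibitor of DNA methylation. Ribosome-depleted RNA was sequenced in 2 samples of untreated cells (replicates 1 and 2) and in 2 of cells treated with 20 μM 5-AZA (replicates 101 and 102). The treated samples had 72 hours of 5-AZA and then 21 days in fresh medium, whereas the labels give the untreated cells no time in culture. The comparison asked how these genes differ between untreated cells and cells induced towards muscle. The line was obtained from a cell bank, and both groups are the same line. The paper describes picking of myotube-like cells with a cell ring and their further culture. No such step, or other sorting of myotubes, is described for the RNA that was sequenced.

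Skeletal muscle fibres form when single myoblasts recognise each other, adhere and merge their plasma membranes into a multinucleated myotube. Cadherins and immunoglobulin-type adhesion molecules hold the cells together, the membrane protein myomaker and the micropeptide myomerger carry out the merging, and metalloproteases, ferlins and tetraspanins act at the same membranes. Tmem8c, Gm7325 and Cdh15 are known from cells committed to muscle, whereas Cdh2, Myof and Cd9 are also made by many mesenchymal cells.

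The 5-AZA samples held 4 of the 8 genes at a higher level, namely both fusion proteins (Tmem8c and Gm7325), the muscle cadherin Cdh15 and Ncam1. A gene was called where limma's adjusted p was below 0.05 and the log2 difference beyond 1, the 2 limits that the study set. By this rule 13.1% of the 13199 genes tested were higher and 1.32% were lower, and 0 of the 8 genes were lower (limma, with 3 lower and 5 higher at an unadjusted p below 0.05). Cdh2, Myof and Cd9 had lower values in both 5-AZA samples and Adam12 higher values, all short of the call. In all 8 genes the samples of the groups did not overlap, as in 62.2% of the genes tested. Levels are FPKM, which scale fragments to transcript length and to sequencing depth, so that genes of different length can be set beside each other.

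**Figure D1:**
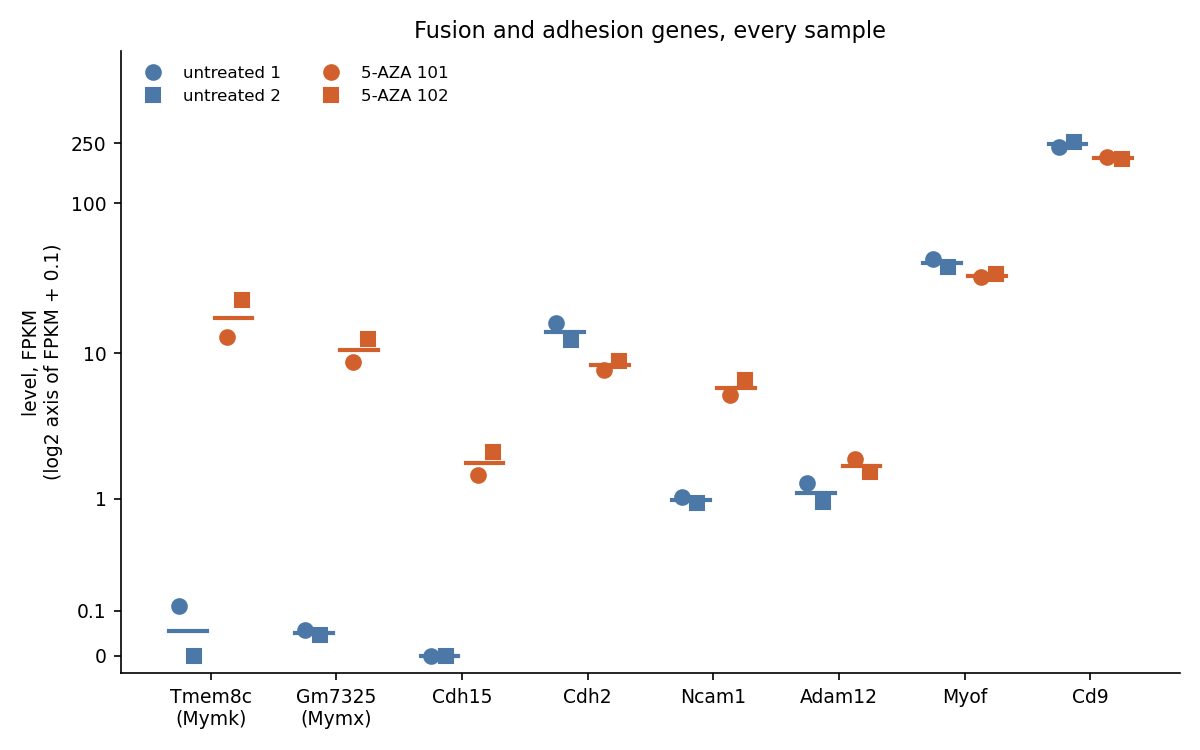
Level of each gene in every sample, in FPKM on a log2 axis of FPKM + 0.1, with blue for untreated and orange for 5-AZA, circles for replicates 1 and 101, squares for replicates 2 and 102, and a bar at the mean of the log2 values. Tmem8c, Gm7325 and Cdh15 lie at or near 0 in the untreated samples and above 1 FPKM in the 5-AZA samples, whereas Cdh2, Myof and Cd9 lie slightly lower in the 5-AZA samples.

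All samples were of like depth, since the smallest steps of the circRNA values correspond to 92903364 to 93920706 reads. Summed FPKM are scaled to depth and do not measure it. For mRNA they were 328410 to 361664 FPKM. For lncRNAs they were 147310.9 and 150156.5 FPKM in the untreated samples and 169513.5 and 223173.5 FPKM in 5-AZA replicates 101 and 102. Genes at 1 FPKM or more numbered 10298 to 11124. FPKM keep no counts, so the depth behind a single value is unknown. The paper calls the samples of a group biological repeats, but nothing says that they came from separate cultures, and the p-values measure only the spread between these samples. With 2 samples against 2, an exact permutation test of a single gene cannot give a two-sided p below 0.333.

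Sequence just upstream of the gene's start was found for 3 of the 8 genes, Cdh15, Myof and Cd9, in the RefSeq promoters of GRCm38.p6. It is shown because 5-AZA acts on the methylation of CpG dinucleotides and because MyoD and myogenin bind the E-box. Cdh15 was listed at 0 in the untreated samples, whereas Myof and Cd9 were abundant in every sample. Each run is the 250 bases before the start, read 5′ to 3′ on the strand of the gene, and capitals mark every CANNTG, the E-box, which reads the same on both strands. Cdh15 spans chr8:122848124-122848373 (plus strand), Myof chr19:38043578-38043827 (minus strand) and Cd9 chr6:125494761-125495010 (minus strand).
Cdh15: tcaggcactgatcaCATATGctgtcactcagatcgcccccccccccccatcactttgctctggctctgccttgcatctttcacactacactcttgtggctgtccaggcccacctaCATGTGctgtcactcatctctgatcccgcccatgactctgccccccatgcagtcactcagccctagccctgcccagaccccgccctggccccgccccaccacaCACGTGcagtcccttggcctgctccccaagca
Myof: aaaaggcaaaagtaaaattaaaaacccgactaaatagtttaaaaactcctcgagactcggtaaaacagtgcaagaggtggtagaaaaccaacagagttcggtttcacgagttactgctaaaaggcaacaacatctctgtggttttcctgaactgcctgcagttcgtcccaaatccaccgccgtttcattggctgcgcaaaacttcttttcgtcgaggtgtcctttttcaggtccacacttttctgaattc
Cd9: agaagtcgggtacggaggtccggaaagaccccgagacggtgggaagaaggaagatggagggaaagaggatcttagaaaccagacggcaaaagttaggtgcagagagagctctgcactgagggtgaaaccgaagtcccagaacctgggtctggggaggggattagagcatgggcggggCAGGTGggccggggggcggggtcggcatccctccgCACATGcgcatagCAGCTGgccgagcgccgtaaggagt
The Cdh15 window holds 5 CpG, that of Myof 11 and that of Cd9 16, against a median of 6 over 32851 promoter windows of the same length. CANNTG occurs 3 times in Cdh15 and 3 times in Cd9 and 0 times in Myof, and 66.2% of all windows hold at least 1. The form CAGCTG is in the Cd9 window and not in those of Cdh15 and Myof, and 13.0% of all windows hold it. These letters are a description of the windows, and no methylation or binding was measured in these samples.

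Tmem8c encodes myomaker, a membrane protein needed on both fusing myoblasts, and the gene spans bases 27061636 to 27072161 of chromosome 2 (GRCm38.p6). Its level was 0.115 and 0 FPKM in untreated replicates 1 and 2 and 13.0 and 22.8 FPKM in 5-AZA replicates 101 and 102. Both treated samples lay far above both untreated samples, with the higher value in replicate 102. With n = 2 per group, the mean ± SD was 0.0577 ± 0.0817 FPKM in untreated and 17.9 ± 6.95 FPKM in 5-AZA samples. This was a log2 difference of 6.88 on log2(FPKM + 0.1) with a standard error of 0.40 (limma, adjusted p = 6.09e-06). The difference stood at 7.29 and 6.48 without 5-AZA replicate 101 and 102 in turn, but the adjusted p then became 0.0518 and 0.0586 (limma), which ends the call.

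Gm7325 encodes myomerger, a muscle micropeptide that works with myomaker in the merging of the membranes, at bases 45600961 to 45602196 of chromosome 17. It was at 0.0482 and 0.0380 FPKM in the untreated samples and at 8.84 and 12.5 FPKM in the 5-AZA samples. The order of the 2 treated samples was that of Tmem8c, with replicate 102 higher. The mean was 0.0431 ± 0.00721 FPKM in untreated and 10.7 ± 2.61 FPKM in 5-AZA samples (SD, n = 2), which gave a log2 difference of 6.21 with a standard error of 0.27 (limma, adjusted p = 1.35e-06). The level of Gm7325 was 0.681 and 0.549 times that of Tmem8c in 5-AZA replicates 101 and 102. Among all genes tested, Tmem8c stood at the 99.8th and Gm7325 at the 99.6th percentile of the log2 difference.

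Cdh15 is M-cadherin, the calcium-dependent adhesion protein of myoblasts and satellite cells, at bases 122848374 to 122867397 of chromosome 8. It was listed at 0 in both untreated samples and at 1.49 and 2.14 FPKM in 5-AZA replicates 101 and 102, a mean of 1.82 ± 0.459 FPKM (SD, n = 2). Cdh15 was called higher (limma, adjusted p = 3.58e-05), but from a level listed at 0 no fold can be given. The fitted log2 difference of 4.24 depends on the 0.1 FPKM added before the log, and it was 1.48 with 1 FPKM and 7.49 with 0.01 FPKM added. Its treated level stood at the 23.0th percentile of the genes tested, below that of Tmem8c at the 75.7th.

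Cdh2 is N-cadherin, an adhesion protein of mesenchymal, neural and muscle cells, at bases 16588877 to 16809246 of chromosome 18. Its level was 15.9 and 12.2 FPKM in the untreated samples and 7.75 and 8.94 FPKM in the 5-AZA samples. Both treated values lay under both untreated values, and the mean was 14.1 ± 2.60 against 8.35 ± 0.846 FPKM (SD, n = 2). The log2 difference of -0.74 (95% interval -1.10 to -0.37, limma, adjusted p = 0.00980) was within the size limit, so Cdh2 was not called. The adjusted p ran from 0.00152 to 0.219 over the settings tried (limma), and it was above 0.05 among others without untreated replicate 1 (0.0750), without 5-AZA replicate 101 (0.219) and without replicate 102 (0.165).

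The cadherins thus stood in different proportions in the groups. Cdh15 was 0.193 and 0.240 times the level of Cdh2 in 5-AZA replicates 101 and 102 and listed at 0 beside Cdh2 in the untreated samples. Cdh2 was the more abundant of the 2 cadherins in every sample.

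Ncam1 encodes the neural cell adhesion molecule (CD56), an immunoglobulin-type protein of neurons, glia and regenerating muscle, at bases 49502129 to 49799393 of chromosome 9. It was at 1.03 and 0.938 FPKM in the untreated samples and at 5.23 and 6.65 FPKM in the 5-AZA samples. Unlike the 3 genes above that were near 0, Ncam1 had a level close to 1 FPKM in the untreated samples. The mean rose 6.04-fold, from 0.983 ± 0.0635 to 5.94 ± 1.01 FPKM (SD, n = 2), with a log2 difference of 2.47 and a standard error of 0.21 (limma, adjusted p = 4.98e-05). Against Cdh2, Ncam1 was 0.0646 and 0.0767 times as abundant in the untreated samples and 0.675 and 0.744 times in the 5-AZA samples.

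Adam12 is meltrin alpha, a metalloprotease with a disintegrin domain, at bases 133883199 to 134225097 of chromosome 7. Its levels were 1.30 and 0.942 FPKM in the untreated samples and 1.92 and 1.55 FPKM in the 5-AZA samples. The groups did not overlap, but the gap between them was smaller than the spread within either group. The log2 difference was 0.60 (95% interval 0.01 to 1.18, limma, adjusted p = 0.133), and it was -0.00084 after quantile normalization, so that no direction can be given.

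Myof is myoferlin, a ferlin that acts in membrane repair and in the merging of myoblasts, at bases 37899036 to 38043577 of chromosome 19. Its levels were 42.5 and 37.9 FPKM in the untreated samples and 32.1 and 33.9 FPKM in the 5-AZA samples, a log2 difference of -0.28 (95% interval -0.52 to -0.04, limma, adjusted p = 0.0895). Cd9 is a tetraspanin that organises adhesion proteins in the membrane, at bases 125460266 to 125494760 of chromosome 6. It was at 237 and 254 FPKM in the untreated samples and at 201 and 196 FPKM in the 5-AZA samples, with a log2 difference of -0.31 (95% interval -0.52 to -0.09, limma, adjusted p = 0.0466). Both genes were slightly lower in the treated samples, and the intervals lie within a 2-fold change. The level of Cd9 was 5.57 to 6.70 times that of Myof in the untreated samples and 5.78 to 6.25 times in the 5-AZA samples, with overlapping groups.

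**Figure D2:**
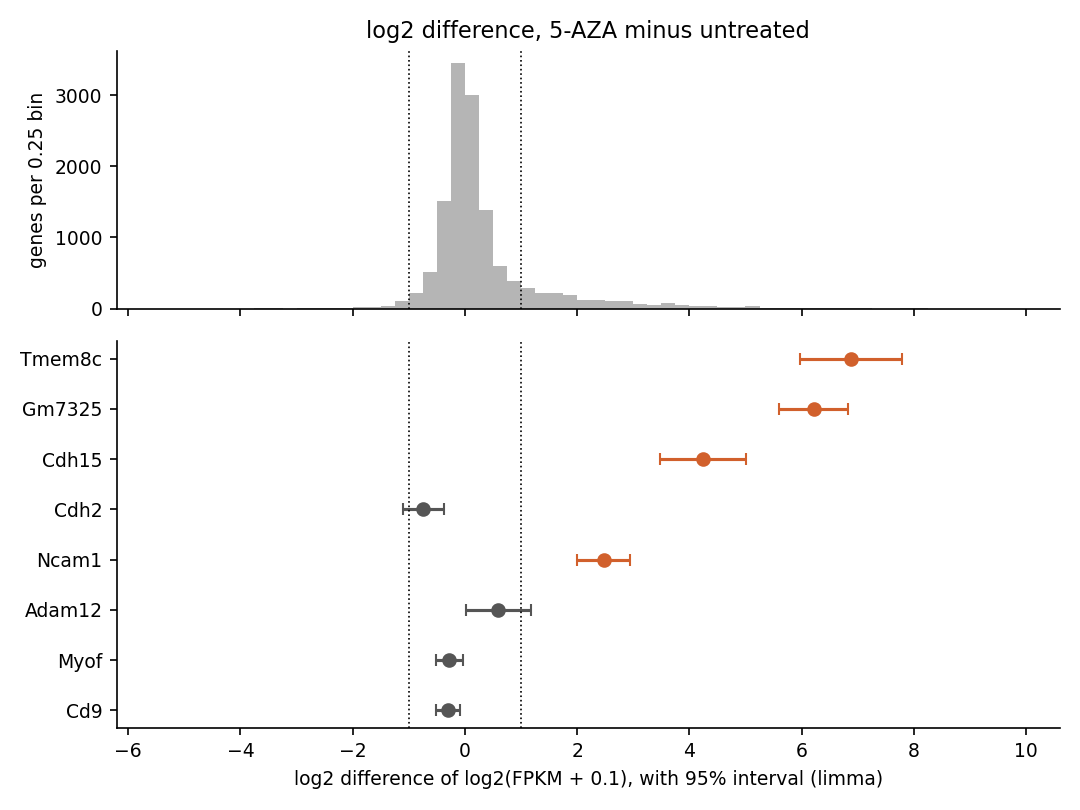
Top, the number of genes in each 0.25-wide bin of the log2 difference (5-AZA minus untreated, log2(FPKM + 0.1)) over the 13199 genes tested; bottom, the 8 genes with their 95% interval from limma, orange where called, with dotted lines at -1 and 1. Tmem8c, Gm7325, Cdh15 and Ncam1 lie right of the size limit, at 6.88, 6.21, 4.24 and 2.47, and the intervals of Myof and Cd9 lie between the dotted lines.

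By level, the order in the untreated samples was Cd9, Myof, Cdh2, Adam12, Ncam1, Tmem8c, Gm7325 and Cdh15. Adam12 and Ncam1 overlapped there, as did Tmem8c and Gm7325, whereas the gaps from Cd9 to Myof, Myof to Cdh2 and Cdh2 to Adam12 exceeded the spread. In the 5-AZA samples the order became Cd9, Myof, Tmem8c, Gm7325, Cdh2, Ncam1, Cdh15 and Adam12. There Gm7325 overlapped Cdh2 and Cdh15 overlapped Adam12. The lowest Tmem8c value, 13.0 FPKM, was just above the highest Gm7325 value, 12.5 FPKM. In RNA of a whole culture, a level cannot be divided between the number of cells that express a gene and the RNA in each of them.

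The median log2 difference of all genes tested was 0.05, and it was -0.06 with the samples centred on their medians and -0.12 after quantile normalization. The 4 calls stood under each of these scalings. Tmem8c, Gm7325 and Cdh15 passed the limit of 0.1 FPKM on the mean only through the 5-AZA samples, and without any limit all 8 genes were tested and 4 were called, the same genes.

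Transcripts of a gene were examined next, since the summed level can hide unequal members. Of the 54 transcripts 22 passed the limit, and 3 were called (limma), beside 2.36% of the 35557 transcripts tested. These were NM_025376.3 of Tmem8c, NM_001177468.1 of Gm7325 and NM_007662.2 of Cdh15, all higher. NM_025376.3 carried nearly all of the Tmem8c level and had a log2 difference of 6.88 (limma, adjusted p = 0.00586). NM_007662.2 is the only Cdh15 transcript listed (limma, adjusted p = 0.0310). With any 1 sample left out, fewer transcripts or no transcripts were called, both here and over all transcripts tested. The quantifier divides reads among transcripts that share exons, so each share is an estimate.

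Gm7325 has 5 transcripts, of which 4 were tested and 1 was called. NM_001177468.1 was at 0.0482 and 0.00823 FPKM in the untreated samples and at 6.40 and 5.47 FPKM in the 5-AZA samples (log2 difference 5.57, limma, adjusted p = 0.00765). NM_001177469.1 was at 1.19 and 4.64 FPKM in 5-AZA replicates 101 and 102 (limma, adjusted p = 0.0546), and XM_006524789.2 at 0.930 and 1.39 FPKM (limma, adjusted p = 0.0539). The first of these therefore made up 72.4% of the gene's level in replicate 101 and 43.7% in replicate 102, and the second 13.4% and 37.0%. The higher Gm7325 level of replicate 102 thus lay mainly in NM_001177469.1, while the called transcript was lower in replicate 102 than in replicate 101.

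Ncam1 has 38 transcripts, most of them predicted, and 8 were tested. All 8 had a higher mean in the 5-AZA samples and 0 were called (limma, 6 higher and 0 lower at an unadjusted p below 0.05, smallest adjusted p = 0.0946), whereas their sum was called. NM_001081445.1 was at 0.239 and 0.115 FPKM in the untreated samples and at 1.28 and 2.06 FPKM in the 5-AZA samples. XM_011242413.1 was at 0.295 and 0.111 FPKM and at 1.60 and 0.682 FPKM. The treated replicates were thus in opposite order in the 2 transcripts, while their gene total was 5.23 and 6.65 FPKM.

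Cdh2 has 2 transcripts, and its values divided unequally among the untreated samples. NM_007664.5 was at 14.9 and 8.66 FPKM in untreated replicates 1 and 2 and at 4.92 and 6.37 FPKM in the 5-AZA samples (log2 difference -1.01, limma, adjusted p = 0.1998). The predicted XM_006525553.1 was at 0.964 and 3.58 FPKM and at 2.83 and 2.57 FPKM (log2 difference 0.50, limma, adjusted p = 0.749), so its groups overlapped. Its share of the Cdh2 level was 6.06% in untreated replicate 1, 29.2% in replicate 2, and 36.5% and 28.7% in the 5-AZA samples. Neither transcript was called.

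Myof has 4 transcripts, and 0 of them were called (limma, 1 lower and 0 higher at an unadjusted p below 0.05). NM_001302140.1 was at 30.2 and 27.5 FPKM in the untreated samples and at 22.2 and 24.2 FPKM in the 5-AZA samples. NM_001099634.1 was at 9.65 and 8.07 FPKM and at 7.95 and 8.61 FPKM, with overlapping groups. XM_006526994.1 was at 2.08 and 1.82 FPKM and at 1.51 and 0.789 FPKM. Adam12 and Cd9 have a single listed transcript each, NM_007400.2 and NM_007657.3, which carry the gene values given above.

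**Figure D3:**
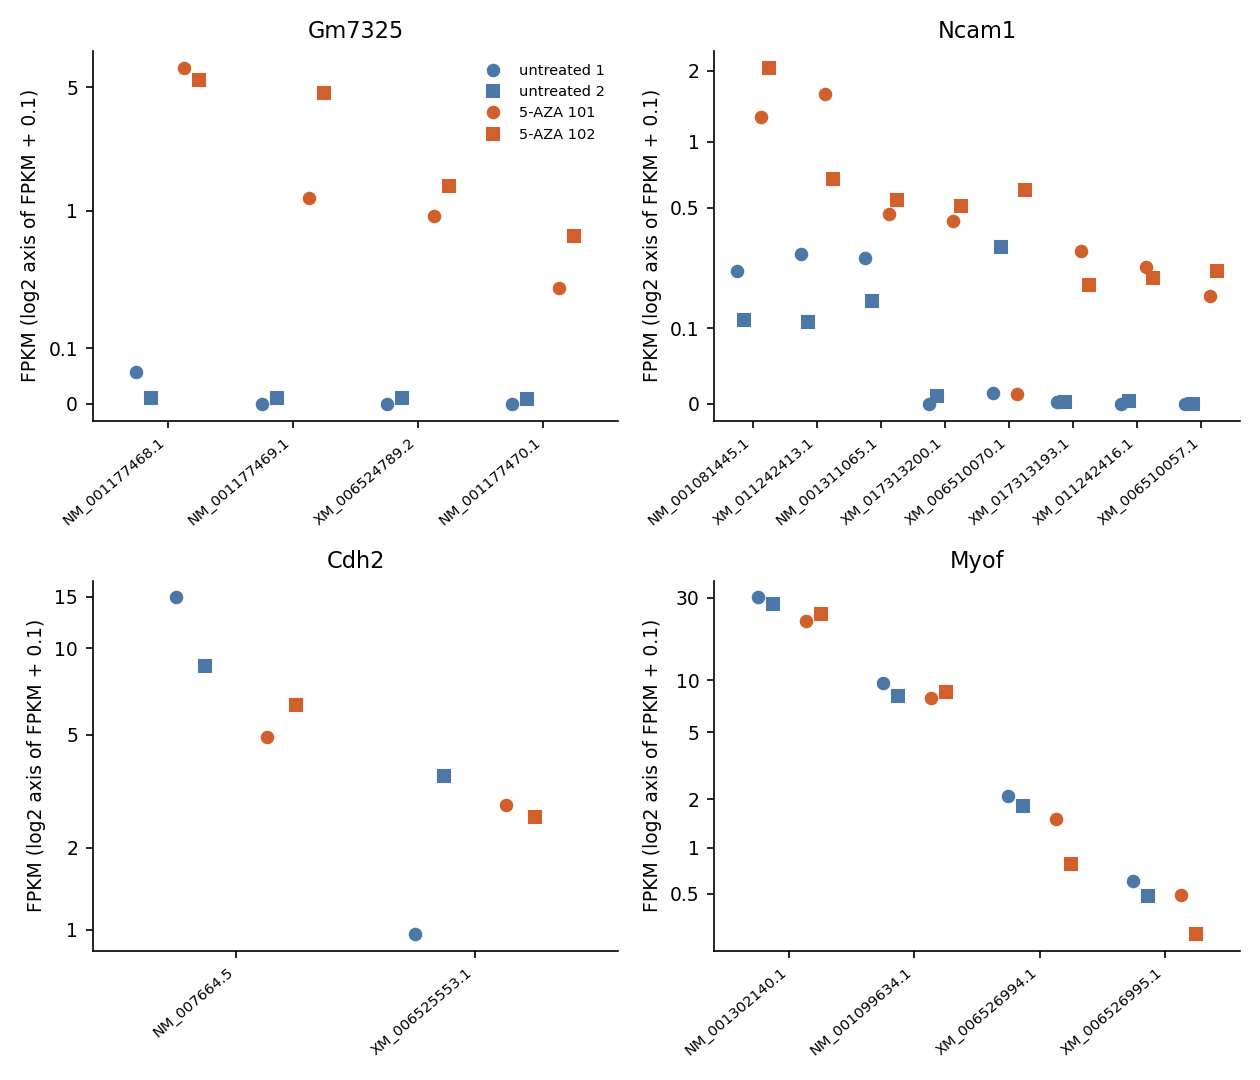
Level of each tested transcript of Gm7325, Ncam1, Cdh2 and Myof in every sample, in FPKM on a log2 axis of FPKM + 0.1 that differs between panels; colours and symbols are as in the plot of the 8 genes. The 4 Gm7325 transcripts are near 0 in both untreated samples, the untreated samples of Cdh2 differ in XM_006525553.1 (0.964 and 3.58 FPKM), and the groups of XM_006510070.1 of Ncam1 overlap.

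Long noncoding RNAs whose listed positions overlap the spans of these genes were read next. There were 60, of which 20 were tested and 0 called (limma, 1 higher and 2 lower at an unadjusted p below 0.05), beside 1.14% of the 24075 lncRNAs tested. At Ncam1, 6 were tested and all 6 had both 5-AZA values above both untreated values, as did 14.6% of all lncRNAs tested. The largest difference there was that of NONMMUT069031.2, a lncRNA of 1252 bases, with 0.119 and 0.114 FPKM in the untreated samples and 1.31 and 1.62 FPKM in the 5-AZA samples (log2 difference 2.85, limma, adjusted p = 0.0509), and it was called with median centring or quantile normalization. At Cdh2, 7 were tested, 6 had a negative log2 difference and 5 had both treated values below both untreated values, as did 31.7% of all lncRNAs tested. NONMMUT031597.2, the most abundant of these, was at 4.47 and 5.42 FPKM in the untreated samples and at 3.28 and 2.52 FPKM in the 5-AZA samples (log2 difference -0.75, limma, adjusted p = 0.349). The median log2 difference was 1.11 for those within Ncam1 and -0.68 for those within Cdh2, beside -0.23 over all lncRNAs tested, which became -0.06 with the samples centred on their medians. Of the 20 tested, 17 have a single exon, and reads of such a lncRNA cannot be told apart from unspliced RNA of a host gene on the same strand. The 7 tested at Cdh2 all lie on the minus strand, as does the circRNA of Cdh2 given below, which is listed as overlapping its gene in sense. The 6 tested at Ncam1 lie on the minus strand too. However, the class listed with the values is antisense for NONMMUT069031.2, NONMMUT069037.2 and NONMMUT069039.2 at Ncam1. The same class is listed for NONMMUT031589.2 at Cdh2. The part of host gene RNA in these lncRNA levels was not tested.

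**Figure D4:**
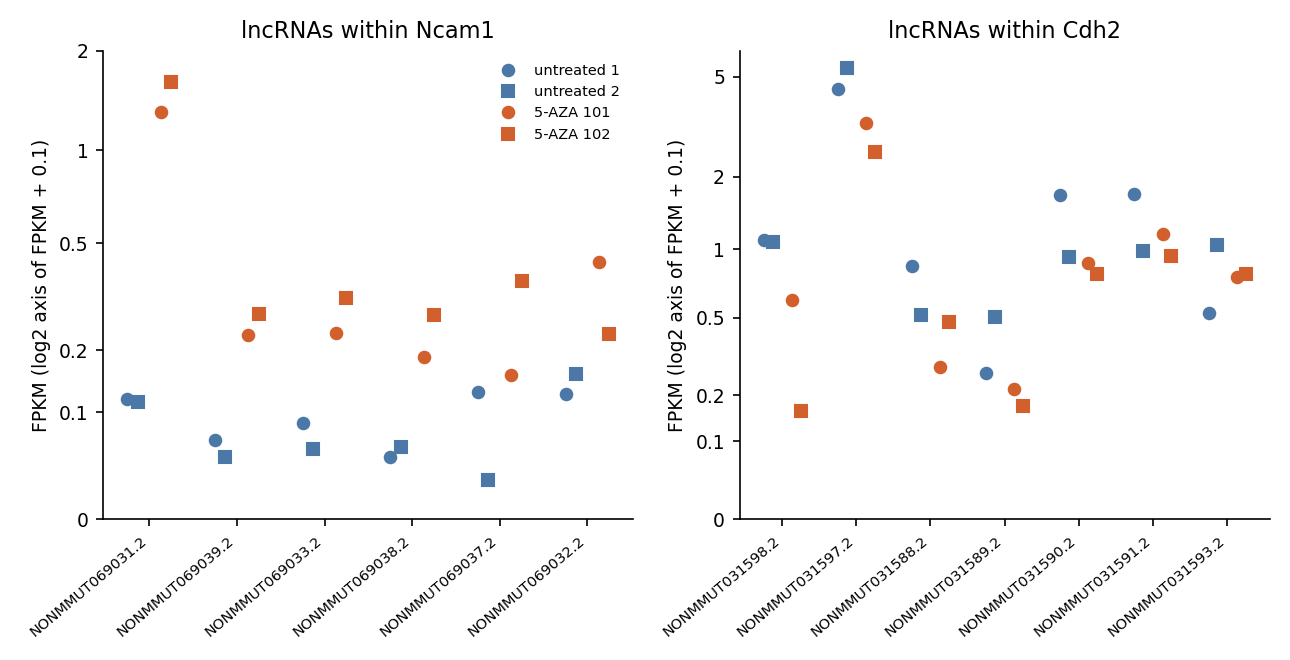
Level of each tested lncRNA within the spans of Ncam1 (left) and Cdh2 (right) in every sample, in FPKM on a log2 axis of FPKM + 0.1; colours and symbols are as in the plot of the 8 genes. All 6 lncRNAs within Ncam1 lie higher in both 5-AZA samples, and 5 of the 7 within Cdh2 lie lower in both, with 0 called.

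Circular RNAs come from back-splicing of an exon to an earlier one, and 2 were listed for the 8 genes. circRNA_2026 of Cdh2, 848 bases long, corresponded to 3 and 4 junction reads in the untreated samples and was listed at 0 in both 5-AZA samples, which stands for fewer than 2 reads. The log2 difference on RPM (junction reads scaled to all reads) was -1.46 (limma, adjusted p = 0.119). This was not a call, and 0% of the 1360 circRNAs tested were called (limma, 91 higher and 160 lower at an unadjusted p below 0.05). circRNA_2233 of Myof had 2 reads in untreated replicate 2, was listed at 0 elsewhere and was not tested. With the test limited to the 381 circRNAs seen in every sample, limma called 8, of which 1 was higher and 7 were lower, and neither circRNA of the 8 genes was in that test.

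Genes with the most similar profile over the 4 samples were sought for the 3 genes near 0 in untreated cells, as the smallest Euclidean distance between centred log2(FPKM + 0.1) values among 13198 others. For Tmem8c these were Plin1 (distance 0.129), Cidec (0.379) and Tnnc1 (0.468). Plin1 and Cidec encode lipid droplet proteins of adipocytes and Tnnc1 a troponin of slow and cardiac muscle. For Gm7325 they were Sohlh2 (0.123), Fgf21 (0.173) and Ttn (0.203), the last being the giant sarcomere protein titin. For Cdh15 they were Trap1a (0.0684), Popdc2 (0.0894) and Tex13 (0.0934). With 4 samples in 2 groups such distances mostly express the size of the difference, and they are given as a description.

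Markers of differentiated skeletal muscle moved with the 4 called genes. All 12 of them were higher, beside 13.1% of all genes tested. Their summed level was 1.12 to 1.497 FPKM in the untreated samples and 896 to 1369 FPKM in the 5-AZA samples. Most of the 12 had an untreated mean below 0.1 FPKM, so they passed the limit only through the 5-AZA samples. Of 6 markers of myoblasts and satellite cells 4 were tested and 3 were higher, with sums of 4.69 to 5.67 and 15.4 to 21.9 FPKM, while Pax7 and Myf5 were listed at 0 in every sample. The 3 higher ones also had an untreated mean below 0.1 FPKM. Adipocyte markers rose as well, 6 of the 7 tested of 8, with sums of 30.3 to 46.2 FPKM against 1135 to 1560 FPKM. Markers of mesenchymal fibroblasts had sums of 8401 to 8437 and 4625 to 4700 FPKM, and of 8 tested 1 was called higher (Thy1) and 0 lower. S100a4 and Vim, with untreated means of 5014 and 2337 FPKM, had log2 differences of -0.98 and -0.87 (limma, adjusted p = 9.31e-04 and 0.00119), within the size limit. Fn1, Col1a1 and Col1a2 also had lower values in both 5-AZA samples, and Pdgfra and Pdgfrb higher values, all short of the call. Of 8 cardiomyocyte markers only 2 were tested and both were higher, with sums over the list of 0.321 to 0.371 and 1.62 to 3.51 FPKM. The less abundant of the 2 passed the limit only through the 5-AZA samples. Those not tested averaged below 0.1 FPKM, and of them Nppa, Nppb, Myl7 and Tbx5 were listed at 0 throughout. The part of these cell types in the levels of the 8 genes was not tested.

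Neural and glial cells also make Ncam1 and Cdh2. Of 10 markers of these cells 7 were tested and 3 were higher (Gfap, Mbp and Sox10), with sums of 3.999 to 5.01 FPKM in the untreated and 10.7 to 17.2 FPKM in the 5-AZA samples. Snap25 and Elavl3 were listed at 0. Of 8 leukocyte markers, a cell type that makes Cd9, 3 were tested and 1 was higher (Cd68), with sums of 4.52 to 5.79 and 6.38 to 8.44 FPKM, and Adgre1 and Cd3e were listed at 0. Of 6 endothelial markers 5 were tested and 3 were higher, with sums of 0.501 to 0.758 and 3.57 to 4.12 FPKM, and Kdr was listed at 0. Chondrocyte markers had sums of 89.7 to 99.96 and 27.1 to 41.1 FPKM, with 2 higher and 3 lower of 7 tested of 8, and osteoblast markers 131 to 142 and 388 to 448 FPKM, with 3 higher of 4 tested of 7. Of all genes tested 13.1% were higher and 1.32% lower. Some of the higher markers, Sox10 among them, had an untreated mean below 0.1 FPKM and passed the limit only through the 5-AZA samples. The part of all these cell types in the levels of Ncam1, Cdh2 and Cd9 was not tested either.

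Other genes of the same processes were drawn from 9 lists that hold 115 genes. Of these 93 were tested, 24 were higher and 2 lower, or 25.8% higher beside 13.1% of all genes tested, and the median log2 difference was 0.16 beside 0.05. Of the 24, 10 had an untreated mean below 0.1 FPKM, so they passed the limit only through the 5-AZA samples. The count fell to 10 called in all without 5-AZA replicate 102 and to 11 without replicate 101 or with 1 FPKM added before the log. It was 17 after quantile normalization (14 higher and 3 lower). The counts of each list below stand beside the same 13.1% higher and 1.32% lower of all genes tested.

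Membrane repair genes held the largest differences. Cav3, the caveolin of muscle, was listed at 0 in both untreated samples and at 4.30 and 6.89 FPKM in the 5-AZA samples (limma, adjusted p = 4.89e-06). Trim72, which helps to seal torn muscle membranes, rose from 0.0465 ± 0.0130 to 5.89 ± 2.49 FPKM (SD, n = 2, log2 difference 5.29, limma, adjusted p = 9.69e-06). Of the 14 genes of ferlins and membrane repair 10 were tested and 3 were higher. The annexins Anxa1, Anxa2 and Anxa5, which bind phospholipids, were abundant and not called, with treated means of 343, 478 and 257 FPKM. Myof and its relative Dysf were not called, with log2 differences of -0.28 and -0.17.

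Cadherins and catenins had 11 of 14 genes tested, with 4 higher and 1 lower. The lower one was Cdh13, the cadherin without a cytoplasmic tail, which fell by 1.40 on the log2 scale (5.09 and 4.22 against 1.82 and 1.57 FPKM, limma, adjusted p = 0.00102) and was chosen here after its values were seen. Ctnnb1, or beta-catenin, which ties cadherins to the cytoskeleton, was at 236 ± 2.02 and 239 ± 20.4 FPKM (SD, n = 2), with a log2 difference of 0.02 and a 95% interval of -0.21 to 0.25.

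Immunoglobulin-type adhesion genes other than Ncam1 had 14 of 18 tested, with 2 higher and 1 lower. The 2 higher of 14 are near the 13.1% of all genes tested. Mcam (CD146) was higher, at 0.451 and 0.248 FPKM in the untreated and 2.26 and 3.92 FPKM in the 5-AZA samples, as was Icam1, at 0.225 and 0.210 against 1.32 and 2.07 FPKM. L1cam, the neural adhesion molecule L1, fell by 1.70 on the log2 scale, from 7.79 and 7.47 FPKM to 1.81 and 2.89 FPKM (limma, adjusted p = 7.12e-04). Ncam1 and L1cam thus moved in opposite directions.

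Among tetraspanins 8 of 9 were tested and 2 were higher, beside 13.1% of all genes tested. Cd53 was at 0.139 and 0.0531 FPKM and at 1.28 and 0.915 FPKM (log2 difference 2.63, limma, adjusted p = 8.87e-04), whereas the abundant Cd63 had means of 784 and 780 FPKM and was not called. Among ADAM proteases 7 of 9 were tested and 1 was higher, which is near that 13.1%. This was Adam8, with 0.466 and 0.451 FPKM against 2.73 and 2.60 FPKM (log2 difference 2.31, limma, adjusted p = 1.54e-04).

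Signalling to actin by Rac and Arf6, which drives the fusing membranes against each other, had 21 of 22 genes tested, with 3 higher and a median log2 difference of -0.05. The 3 higher of 21 are near the 13.1% of all genes tested. Nckap1l, the blood-cell form of a WAVE complex subunit, rose from 0.0159 ± 0.00489 to 3.05 ± 0.591 FPKM (SD, n = 2, log2 difference 4.75, limma, adjusted p = 1.01e-05). Elmo1, a partner of Dock1 in Rac activation, was at 1.05 and 1.23 FPKM and at 3.32 and 3.61 FPKM (log2 difference 1.53, limma, adjusted p = 8.43e-04). Receptors of exposed phosphatidylserine had 5 of 9 tested and 0 called (limma, 1 higher and 0 lower at an unadjusted p below 0.05).

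Receptors and ligands that promote myogenesis had all 8 tested and 4 higher, among them Unc5b, a netrin receptor, with 2.08 and 1.86 FPKM against 5.16 and 6.07 FPKM. Gas1 of the same list, a surface co-receptor of hedgehog signalling, was not called, with means of 426 and 358 FPKM. Cytokines and chemokines of fusion had 9 of 12 tested and 5 higher. Fst, or follistatin, an inhibitor of myostatin, rose from 6.70 ± 0.457 to 24.9 ± 3.36 FPKM (SD, n = 2, log2 difference 1.87, limma, adjusted p = 2.14e-05). Ptgir, the prostacyclin receptor, was at 0.264 and 0.111 FPKM and at 1.48 and 1.07 FPKM (log2 difference 2.29, limma, adjusted p = 0.00186).

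The deposited GO terms place all 8 genes at the plasma membrane, a term held by 17.4% of the genes tested. Cell adhesion was given for 5 of them (Cdh15, Cdh2, Ncam1, Adam12 and Cd9) and for 2.49% of the genes tested, and myoblast fusion for 3 (Tmem8c, Gm7325 and Myof). Apart from these 3, 19 genes carry the term myoblast fusion, of which 13 were tested, 5 were higher and 0 lower. Of all genes tested 13.1% were higher. The median log2 difference of the 13 was 0.02 beside 0.05 over all genes. The 5 were Cacna1s, Casp1, Cav3, Myod1 and Ntn3, a list added after the data had been seen. Cacna1s, Casp1, Cav3 and Myod1 had an untreated mean below 0.1 FPKM, so they passed the limit only through the 5-AZA samples. The 19 are not separate from the lists above, which already hold Cav3, Ntn3, Cdon, Neo1, Nphs1, Fer1l5 and Adgrb3. Myod1, the master transcription factor of muscle, was listed at 0 in the untreated samples and at 0.512 and 1.23 FPKM in the 5-AZA samples.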

How the data were processed

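Per the labels, 2 untreated and 2 5-AZA-treated C3H10T1/2 samples were sequenced from ribosome-depleted RNA with stranded libraries. The authors deposited FPKM values for mRNA and lncRNA transcripts and RPM values for circRNAs. The submitters' processing notes name Trimmomatic, HISAT2, Bowtie2 2.2.9, eXpress 1.5.1 and the build mm9, without their roles. Gene coordinates here are those of RefSeq in GRCm38.p6, because 84.9% of 4047 circRNA host transcripts lie inside the span of their gene in that build. Of the 131850 lncRNAs, 1.84% had both ends within 2 bases of a noncoding RNA gene of that build, so the build of their positions is less sure. The study used DESeq, which needs counts that FPKM do not hold.

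Transcripts were summed per gene, and log2(FPKM + 0.1) was fitted with limma 3.58.1 (lmFit, eBayes with trend) in R 4.3.3 where a feature averaged 0.1 FPKM or more over the samples. Differences on this scale understate those of low genes. p-values were adjusted by Benjamini and Hochberg's approach over all features of a table. For circRNAs, the smallest value above 0 (0.0213 RPM) was added and detection in 2 samples was required. The fit was tested on simulated data, with 200 changed genes in each of 10 draws. Those genes had a higher mean log2 level than Tmem8c, Gm7325 and Cdh15, so the simulation does not cover rises from near 0. The 8 genes and all lists were chosen with earlier results of these data known.

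Named transcripts have a mean of at least 1 FPKM in a group. Named genes of the lists are the 12 called ones with the largest differences, with groups that do not overlap and 1 FPKM or more in the higher group, and the 6 most abundant uncalled ones. NONMMUT069031.2 and NONMMUT031597.2, genes named beside marker lists, and XM_006510070.1, Dysf and Myod1 were chosen after their values were seen. Other pseudocounts, limits, scalings and the omission of each sample were tried. The result of 1 marker gene is not reported here.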

Additional observations from a re-analysis of the deposited data

How the results depend on the processing

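The 4 called genes were called under each alternative for pseudocount, scaling and eBayes, with 2 exceptions for low values and samples: Cdh15 was not tested with a mean of at least 1 FPKM required, and Tmem8c lost its call without 5-AZA replicate 101 or 102, as given above. Over all genes the number called was 1898, and 961 with 1 FPKM added, 1262 without a limit on low values, 967 with a mean of at least 1 FPKM, and 803 to 1801 with a sample left out. Quantile normalization gave 1041 higher and 886 lower genes in place of 1724 and 174. Of the other fusion and adhesion genes 26 were called, and 11 with 1 FPKM added, 12 with a mean of at least 1 FPKM, 17 after quantile normalization, 14 with curated NM transcripts only, and 10 to 24 with a sample left out. Of the transcripts 3 were called, and 0 without a limit on low values, where 0 of all 66285 transcripts tested were called. With a sample left out, fewer transcripts or no transcripts were called, as over all transcripts tested. At the lncRNAs, with alternatives chosen after seeing the data, median centring and quantile normalization each gave 1 call in place of 0. Adam12 changed sign to -0.00084 after quantile normalization. The causes were not tested. No paired analysis was possible because the groups share no replicate numbers. With 1 sample left in a group, its spread is assumed to be that of the other group. Depth per FPKM value is unknown, and the number of samples limits every call.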
